A study of Mus musculus with 39 samples.

Results

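The 9 genes described here mark the basal layer of the mammary epithelium. Krt5, Krt14, Krt15 and Krt17 encode keratins of basal epithelial cells, and Trp63 encodes p63, the transcription factor of stratified and basal epithelium. Acta2 (smooth muscle actin), Myh11 (smooth muscle myosin heavy chain) and Cnn1 (calponin) belong to the contractile apparatus, and Oxtr encodes the oxytocin receptor. They were taken by name from the array annotation, and where a gene had several probe sets the one with the highest mean in the 39 arrays was used, leaving out sets marked as open to cross-hybridisation (_x_at) where another existed. All 9 were measured, out of 18194 named genes.

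Each array measured 1 mouse tissue sample, as log2 expression. Breast of quadruple animals, labelled SB/Tg/K5Cre/Bcat, gave 19 arrays (15 animals). Breast of triple K5Cre animals (SB/Tg/k5Cre, without Bcat) gave 8 arrays of 8 animals, and breast of triple Bcat animals (SB/Tg/Bcat, without K5Cre) gave 3 arrays of 2 animals. Masses in the breast of Bcat +/- animals gave 2 arrays from 2 animals, and ventral tumours of 1 Bcat +/- animal gave 3 arrays. Normal mammary gland gave 4 arrays from 4 animals: gland 1 came from a triple Bcat animal, gland 2 from a quadruple animal, and glands 3 and 4 from the triple K5Cre animals T627 and T635, which also gave breast arrays. All but the masses and ventral tumours therefore carried SB and Tg, the glands included. Sleeping Beauty, in the study's title, is a transposon system used for insertional mutagenesis; the labels describe none of the alleles. By convention K5Cre names a Cre recombinase under a keratin 5 promoter, which is active in basal cells and in skin. No label says whether the breast samples were tumours, and none states an age or strain. The titles name the animals of the masses and ventral tumours with a prefix C57 that no other group has, and do not say what it stands for, so it cannot be told apart from those groups.

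In the mammary gland, basal cells lie beneath the luminal cells on the basement membrane. Most of them are myoepithelial: they carry basal keratins and p63 and also contract, through smooth muscle actin, myosin and calponin, when oxytocin acts on its receptor during milk ejection. Basal keratinocytes of the skin share the keratins and p63 but lack the contractile apparatus, while smooth muscle of vessels holds the contractile proteins without the keratins. The 9 genes therefore form a keratin arm and a contractile arm, which come together in myoepithelial cells.

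RefSeq promoter sequences of mouse build GRCm38.p6 covered 5 of the 9 genes (Krt5, Krt14, Acta2, Cnn1 and Oxtr). In the 250 bases before each start, 4 motifs were searched on both strands. They were the CArG box bound by serum response factor, the same box with at most 1 mismatch, the p53 family half-site that p63 can bind, and TATAAA. The motifs were chosen with the expression values known, and a match describes letters only. The Krt5 window is shown because it held 1 p53 family half-site, which 7.13% of 32851 windows of that length held; the half-site is in capitals and begins 95 bases before the start. The window lies on the minus strand at chr15:101712906-101713155.
Krt5: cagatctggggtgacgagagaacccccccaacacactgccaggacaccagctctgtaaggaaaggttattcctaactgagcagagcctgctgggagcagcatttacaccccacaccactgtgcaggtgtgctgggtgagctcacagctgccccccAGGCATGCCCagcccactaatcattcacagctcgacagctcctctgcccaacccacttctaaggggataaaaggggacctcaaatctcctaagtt

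For Acta2 the 2 stretches around a CArG box with 1 mismatch are shown, with the box in capitals, since this gene opens the contractile arm. Both lie on the minus strand, at chr19:34255438-34255467 and chr19:34255388-34255417, and the boxes begin 84 and 34 bases before the start that the promoter table uses. The gene's RefSeq span, chr19:34240336-34255585, reaches farther upstream than that start, so both stretches lie within it. A CArG box with at most 1 mismatch was found in 8.59% of all windows and a perfect one in 1.47%.
Acta2 site 1: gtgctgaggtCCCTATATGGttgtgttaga
Acta2 site 2: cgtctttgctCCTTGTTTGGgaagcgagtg
The windows of Krt14, Cnn1 and Oxtr held 0 matches to any of the 4 motifs, and no window of the 5 genes held TATAAA, which 12.4% of all windows held.

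Across the series the keratins and p63 were higher, and the contractile genes and the oxytocin receptor lower, in the breast, mass and tumour groups than in normal gland. The group means of all 9 genes lay this way in all 5 groups. It passed the test only for Oxtr, which fell in 4 of the 5 groups, and for Myh11, which fell in triple K5Cre breast. The keratin differences were up to 4.04 log2 units (Krt17 in the masses) and none passed. In the quadruple and triple K5Cre groups single arrays spread over several units. In the masses Krt17 was 12.39 and 12.79.

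**Figure D1:**
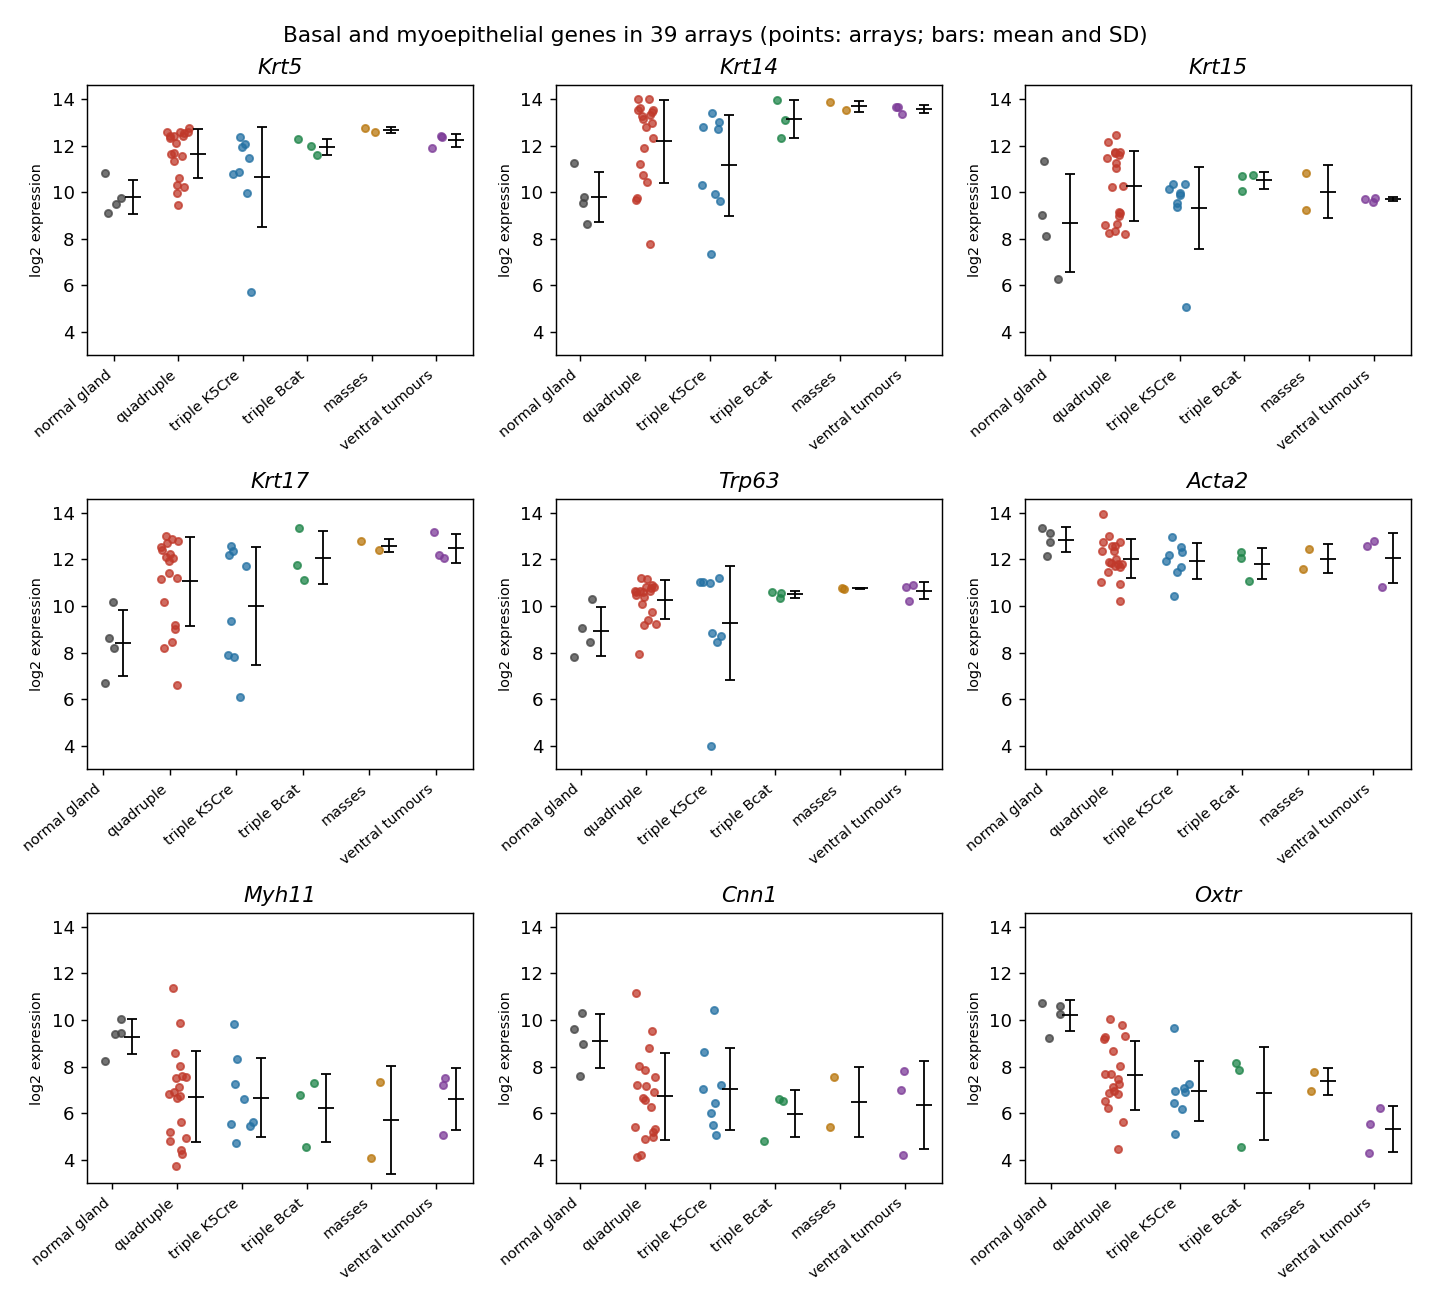
Log2 expression of each gene by group; points are arrays, and bars are the group mean and SD. Krt5, Krt14, Krt17 and Trp63 sit lowest on average in normal gland, while Acta2, Myh11, Cnn1 and Oxtr sit highest there. In Krt14 the quadruple and triple K5Cre arrays spread most, from 7.76 to 13.99 and from 7.37 to 13.40. In other genes, such as Krt15 and Myh11, a smaller group has the largest SD.

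Krt5 and Krt14 form the keratin pair of basal cells. Krt5 was 10.83, 9.12, 9.73 and 9.51 in glands 1 to 4, and the quadruple arrays ran from 9.44 through a median of 12.12 to 12.73. Triple K5Cre arrays ran from 5.74 through 11.17 to 12.35. It was 12.28, 11.98 and 11.58 in triple Bcat breast, 12.75 and 12.56 in the masses, and 11.91, 12.38 and 12.40 in the ventral tumours. The last 3 groups lay wholly above the glands, as did 14 of the 19 quadruple and 5 of the 8 triple K5Cre arrays, while 1 triple K5Cre array lay far below them.

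Krt14 was 11.24, 8.63, 9.53 and 9.81 in the glands. The quadruple arrays ran from 7.76 through a median of 12.96 to 13.99, and the triple K5Cre arrays from 7.37 through 11.52 to 13.40. Triple Bcat breast gave 13.97, 13.10 and 12.32, the masses 13.51 and 13.85, and the ventral tumours 13.35, 13.66 and 13.64. Again these last groups stood above every gland, with 13 quadruple and 4 triple K5Cre arrays. In each of the quadruple and triple K5Cre groups 1 array was below all glands.

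Krt17 is a keratin of basal appendage cells and of activated epidermis. With the probe sets used, it had the widest shift of group means among the keratins and Trp63. Its level was 10.17, 6.69, 8.61 and 8.20 in the glands. It ran from 6.60 through a median of 11.93 to 13.02 in quadruple breast, and from 6.08 through 10.53 to 12.58 in triple K5Cre breast. Triple Bcat breast gave 13.34, 11.77 and 11.13, the masses 12.39 and 12.79, and the ventral tumours 13.18, 12.20 and 12.04. As for Krt14, 13 quadruple and 4 triple K5Cre arrays, and all arrays of the 3 small groups, lay above the glands.

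Krt15, a keratin of basal cells and of the hair follicle bulge, behaved differently. Its glands were spread most, at 11.32, 6.29, 9.002 and 8.11. Quadruple breast ran from 8.21 through a median of 10.25 to 12.44, and triple K5Cre breast from 5.06 through 9.92 to 10.34. The 3 small groups gave 10.07, 10.75 and 10.69 (triple Bcat), 9.23 and 10.82 (masses) and 9.60, 9.72 and 9.77 (ventral tumours). Gland 1 was above every array outside the quadruple group, and only 7 quadruple arrays exceeded it.

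Trp63 was 10.29, 7.81, 9.06 and 8.47 in the glands. It ran from 7.93 through a median of 10.61 to 11.20 in quadruple breast, and from 4.02 through 9.90 to 11.21 in triple K5Cre breast. It was 10.59, 10.55 and 10.35 in triple Bcat breast, 10.78 and 10.73 in the masses, and 10.92, 10.23 and 10.81 in the ventral tumours. All arrays of triple Bcat and masses, 2 of 3 ventral tumours, 13 quadruple and 4 triple K5Cre arrays lay above the glands. The highest gland was gland 1, as for the 4 keratins.

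In the contractile arm, Acta2 moved least with the probe sets used. It was 12.15, 12.73, 13.36 and 13.13 in the glands, from 10.20 through 11.90 to 13.95 in quadruple breast, and from 10.42 through 12.07 to 12.96 in triple K5Cre breast. Triple Bcat breast gave 11.06, 12.08 and 12.31, the masses 12.46 and 11.60, and the ventral tumours 10.83, 12.57 and 12.80. Every group overlapped the glands, with 11 quadruple and 4 triple K5Cre arrays below all of them and 1 quadruple array above.

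Myh11, the myosin heavy chain of smooth muscle, was 8.26, 9.40, 10.03 and 9.44 in the glands. It ran from 3.73 through a median of 6.83 to 11.36 in quadruple breast, and from 4.73 through 6.12 to 9.80 in triple K5Cre breast. Triple Bcat breast gave 4.54, 7.28 and 6.79, the masses 7.35 and 4.06, and the ventral tumours 5.06, 7.23 and 7.49. These 8 arrays all lay below the glands, as did 16 of 19 quadruple and 6 of 8 triple K5Cre arrays. The exception at the top was quadruple array 16, above every gland.

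Cnn1, which binds actin and restrains contraction, was 7.59, 8.96, 10.31 and 9.59 in the glands. It ran from 4.12 through 6.65 to 11.17 in quadruple breast, and from 5.04 through 6.73 to 10.43 in triple K5Cre breast. Triple Bcat breast gave 4.81, 6.60 and 6.54, the masses 7.55 and 5.42, and the ventral tumours 4.21, 6.998 and 7.79. Below all glands lay 14 quadruple, 6 triple K5Cre, 3 triple Bcat, 2 mass and 2 ventral tumour arrays, and 1 quadruple and 1 triple K5Cre array lay above them.

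Oxtr, unlike Acta2, Myh11 and Cnn1, had no array above the highest gland. It was 9.22, 10.25, 10.71 and 10.59 in the glands, from 4.45 through a median of 7.45 to 10.03 in quadruple breast, and from 5.10 through 6.93 to 9.67 in triple K5Cre breast. Triple Bcat breast gave 4.54, 8.15 and 7.86, the masses 6.96 and 7.77, and the ventral tumours 4.27, 5.54 and 6.21. The highest array outside the glands, 10.03, lay below glands 2, 3 and 4. In all, 15 of 19 quadruple, 7 of 8 triple K5Cre and all arrays of the 3 small groups lay below gland 1, the lowest.

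The first question the design raises is how quadruple breast differs from normal gland. Of the 9 genes, 1 fell, Oxtr, and 0 rose, where 9.66% of all genes fell and 5.7% rose (15.4% called in all). Differences come from a limma fit over all 39 arrays with the animal as a random block, so they need not equal the difference of printed means. The call needed a p under 0.05 after Benjamini-Hochberg adjustment across the 18194 genes. Oxtr fell by 2.55 log2 units (SE 0.77, adjusted p = 0.0190). In bulk tissue such as this, fewer cells of a type and less RNA per cell cannot be told apart.

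Myh11 (-2.71, SE 0.99, adjusted p = 0.0582 in limma) and Cnn1 (-2.65, SE 0.97, adjusted p = 0.0607) differed by as much as Oxtr and did not pass. Acta2 differed by -0.98 (adjusted p = 0.146). On the keratin side, the differences were 2.45 for Krt17, 2.17 for Krt14, 1.55 for Krt5, 1.20 for Krt15 and 1.05 for Trp63, with adjusted p between 0.106 and 0.376. The 95% intervals ran from 0.31 to 4.02 for Krt14 and from 0.36 to 4.55 for Krt17. The Oxtr call was lost without gland 2, 3 or 4 (adjusted p = 0.0522, 0.0860 and 0.0782). Without quadruple array 16, left out after the values were seen, 3 genes fell: Oxtr, Myh11 (adjusted p = 0.0194 in limma) and Cnn1 (adjusted p = 0.0216). In that fit 16.4% of all genes were called.

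**Figure D2:**
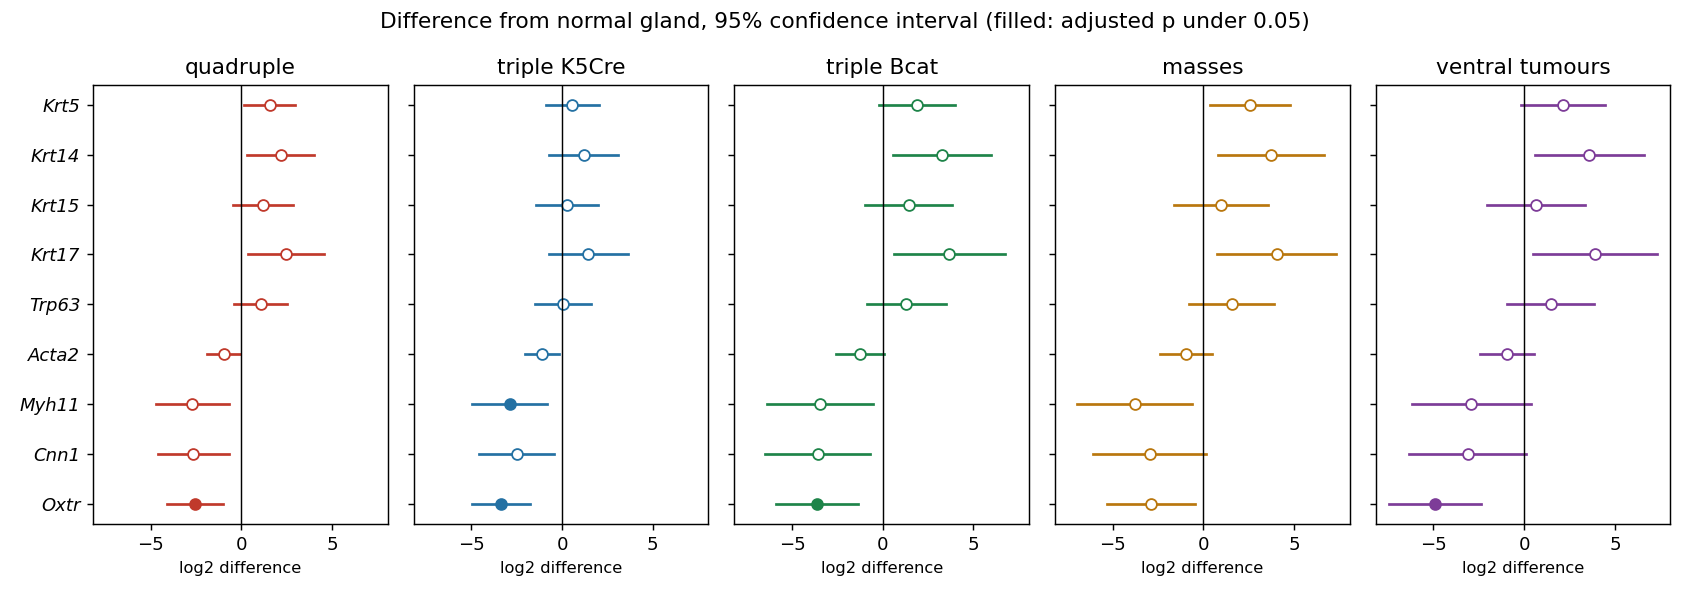
Fitted log2 difference of each group from normal gland, with the 95% confidence interval; filled points have an adjusted p under 0.05. The 5 filled points are Oxtr in quadruple, triple K5Cre, triple Bcat and ventral tumours and Myh11 in triple K5Cre; the keratins and Trp63 lie right of 0 and the contractile genes left of it in all 5 panels.

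Triple K5Cre breast lacks the Bcat element. Here 2 of the 9 genes fell, Oxtr and Myh11, and 0 rose, beside 9.79% and 7.44% of all genes (17.2% called in all). Oxtr fell by 3.35 (SE 0.79, adjusted p = 0.00252) and Myh11 fell by 2.89 (SE 1.02, adjusted p = 0.0463). Cnn1 (-2.51, adjusted p = 0.0814 in limma) and Acta2 (-1.12, adjusted p = 0.0940) were close to the threshold. The keratins and Trp63 differed by 0.066 to 1.44, with adjusted p from 0.390 to 0.970. Of these, Krt15 and Trp63 turned sign without gland 2, to -0.53 and -0.35.

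In the fit of only the 2 animals with both tissues, with the animal as a fixed block, Oxtr differed by -3.96 and Myh11 by -4.23, and neither passed (adjusted p = 0.123 for both in limma). That fit called 0 genes in all, so not passing sets neither gene apart. The Myh11 call was kept in 3 of 12 alternatives and the Oxtr call in 11 of 12. Array 2 of the group bore on the keratin arm: without it, left out after the values were seen, Krt5 rose by 1.66 (adjusted p = 0.0298 in limma) and Myh11 did not pass (-2.62, adjusted p = 0.100).

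Triple Bcat breast carries no K5Cre. Oxtr was the 1 gene of 9 that fell, by 3.64 (SE 1.12, adjusted p = 0.0416), where 5.38% of all genes fell and 1.74% rose (7.12% called in all). Krt17 (3.65), Krt14 (3.25), Myh11 (-3.46) and Cnn1 (-3.59) differed without passing, with adjusted p from 0.122 to 0.143 in limma. Of the 9 genes, 7 did not overlap the glands (Krt5, Krt14, Krt17, Trp63, Myh11, Cnn1 and Oxtr), against 28.5% of all genes. The 3 arrays came from 2 animals, and the Oxtr call was lost without array 1 (-2.25, adjusted p = 0.479) or without gland 2, 3 or 4 (adjusted p = 0.0689, 0.102 and 0.0927).

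The Bcat +/- lesions lack SB, Tg and K5Cre in their labels. In the masses limma called 0 of the 9 genes, beside 7.28% of all genes (2.6% higher, 4.68% lower). At an unadjusted p under 0.05, 5 of the 9 passed (Krt5, Krt14, Krt17, Myh11 and Oxtr), beside 3851 of all 18194 genes. Krt17 differed by 4.04, Krt14 by 3.72, Krt5 by 2.56, Myh11 by -3.79 and Oxtr by -2.89, with adjusted p from 0.111 to 0.160. In the ventral tumours Oxtr fell by 4.92 (SE 1.25, adjusted p = 0.0201 in limma), the largest fall among the 5 groups, and was the 1 gene of 9 called, beside 4.03% of all genes (0.813% higher, 3.22% lower). Krt17 and Krt14 differed by 3.92 and 3.59 there (adjusted p = 0.189 and 0.171).

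Separation from the glands was common in these small groups: 7 of the 9 genes in the masses did not overlap the glands (all but Krt15 and Acta2), against 44.7% of all genes, and 5 of 9 in the ventral tumours (Krt5, Krt14, Krt17, Myh11 and Oxtr), against 37.2%. The 3 ventral arrays share 1 animal, and with arrays averaged by animal Oxtr did not pass (-4.86, adjusted p = 0.0979 in limma). Its call was also lost without gland 3 or 4 or ventral array 1 (adjusted p = 0.0702, 0.0502 and 0.0674).

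The keratin calls differed between fits. The fit above lets all 6 groups share 1 estimate of spread and of the animal block. When only the 2 compared groups entered, which also changed the fitted differences, Krt5, Krt14 and Krt17 rose in triple Bcat, masses and ventral tumours (differences of 2.18 to 4.17, adjusted p from 0.00782 to 0.0322 in limma), and Krt5 rose in quadruple breast (1.85, adjusted p = 0.0228). In the same fits the called members numbered 6 for triple Bcat, beside 11.2% of all genes, 5 for the masses, beside 20.2%, and 4 for the ventral tumours, beside 14.3%. They numbered 2 for quadruple, beside 13.9%, and 1 for triple K5Cre, beside 13.7%. The share of all genes called thus rose in the 3 small groups as well. All 5 comparisons share the same 4 glands, so they are not independent of one another.

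Between the groups with SB and Tg, limma called 0 of the 9 genes. Quadruple minus triple K5Cre, where the groups differ by Bcat, gave 1.00 for Krt5 (95% interval -0.10 to 2.11) and 0.80 for Oxtr (-0.41 to 2.02). None of the 18194 genes was called (0%); at an unadjusted p under 0.05, 234 were higher and 577 lower, with 0 of the 9 among them. Quadruple minus triple Bcat, where they differ by K5Cre, gave -1.20 for Krt17 (-3.79 to 1.39) and 1.09 for Oxtr (-0.84 to 3.01). There 0.033% of all genes were called. At an unadjusted p under 0.05, 808 genes were higher and 719 lower, with 0 of the 9 among them.

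By group mean, Krt5, Krt14, Krt17 and Trp63 shared 1 order: masses, ventral tumours, triple Bcat, quadruple, triple K5Cre and normal gland. Krt15 ran from triple Bcat (10.50) to normal gland (8.68). Myh11, Cnn1, Acta2 and Oxtr all had normal gland first, and Oxtr ended with the ventral tumours (5.34). Of the 45 neighbouring pairs in these 9 orders, 1 differed beyond the test, normal gland and quadruple for Oxtr. Among the other 8 pairs of groups limma called 0 of the 9 genes, beside few genes in all. Against quadruple, the share of all genes called was 0.214% for the masses and 0.143% for the ventral tumours. Against triple K5Cre it was 0.0385% for triple Bcat, 0.28% for the masses and 0.176% for the ventral tumours. Against triple Bcat it was 0.011% for the masses and 0.022% for the ventral tumours, and between ventral tumours and masses 0.011%. At an unadjusted p under 0.05 in limma, 1 of the 9 passed in these pairs, Oxtr, lower in the ventral tumours than in quadruple breast (-2.37, adjusted p = 0.515). Ctnnb1, the gene of beta-catenin, was between 12.37 and 13.39 in the 39 arrays, and differed by 0.18 between quadruple breast and gland (SE 0.13, adjusted p = 0.384 in limma).

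Single arrays departed widely from their group means. Quadruple array 3 had the lowest Krt14 and Krt17 of its group, 7.76 and 6.60, below every gland. Triple K5Cre array 2, the breast sample of T627, had the lowest value of all 39 arrays in Krt5, Krt14, Krt15, Krt17 and Trp63, and it was low in Myh11 (5.54) and Cnn1 (5.04) as well. Both arms were thus low in that sample, and its luminal list level of 10.65 lay within the range of the glands.

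Quadruple array 16 had the highest Acta2, Myh11 and Cnn1 of all 39 arrays, 13.95, 11.36 and 11.17, together with an Oxtr of 10.03. Its Krt5 was 11.70 and its Krt15 12.14, above every gland, but its Krt14 was 10.43 and Krt17 9.02, within the glands. Its suprabasal epidermis list level, 4.76, was as low as in glands 2 to 4. Triple K5Cre array 1 was similar in the contractile arm, with 9.80 for Myh11, 10.43 for Cnn1 and 9.67 for Oxtr.

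**Figure D3:**
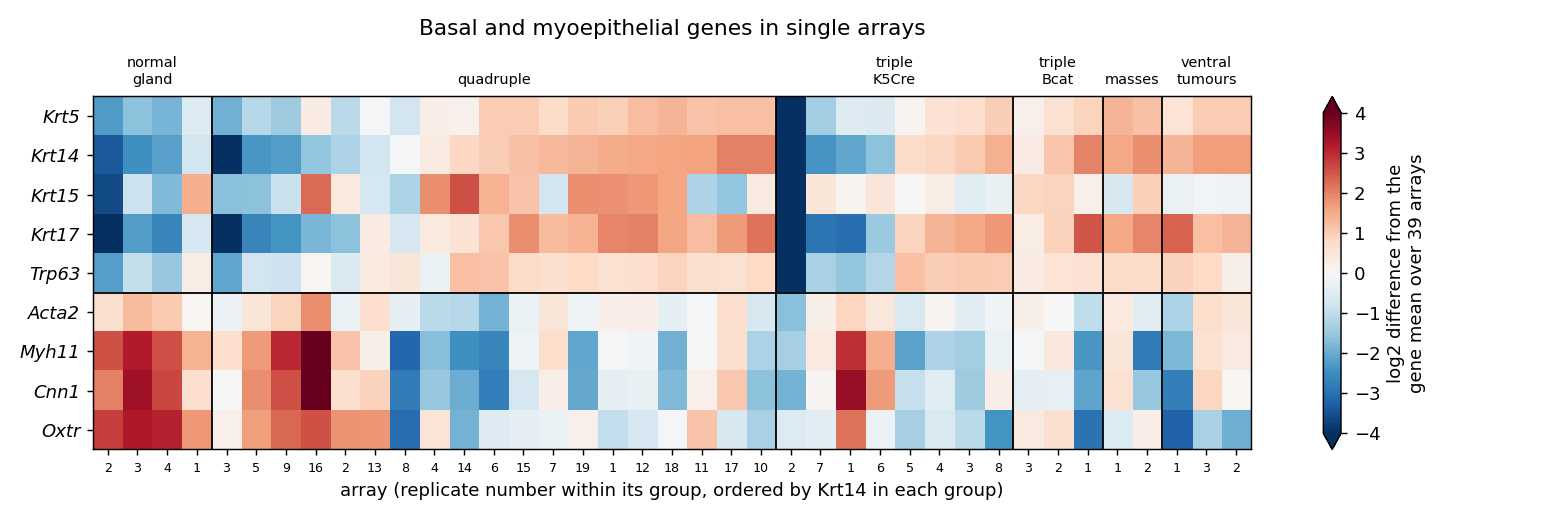
Each gene in each array as the log2 difference from that gene's mean over 39 arrays; colours stop at 4 units, and arrays are ordered by Krt14 within a group. In glands 2 to 4 the keratins and Trp63 (above the line) are blue and the contractile genes and Oxtr (below it) red, while gland 1 is paler and red in Krt15; triple K5Cre array 2 is dark blue across the keratins and Trp63, and quadruple array 16 is dark red in Myh11 and Cnn1.

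Arrays of 1 animal could differ as much as arrays of different animals. Animal Q648 gave 3 quadruple arrays with Krt14 at 11.91, 9.73 and 13.99 and Myh11 at 3.73, 9.87 and 5.61. Oxtr in the same samples was 4.45, 9.80 and 6.20, so the sample with the lowest Krt14 had the highest Myh11 and Oxtr. That sample, array 9, also had an adipocyte list level of 11.38 and a skeletal muscle level of 11.40, against 6.11 and 6.15 in array 8 and 7.37 and 4.43 in array 10; the part of these tissues was not tested. By contrast, the arrays of Q190 differed by at most 0.32 in any of the 9 genes, and those of Q2154 by at most 0.32. The 3 ventral tumours of 1 animal lay within 0.31 in Krt14 and 0.17 in Krt15 but ranged over 2.43 in Myh11 and 3.58 in Cnn1.

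Animals T627 and T635 allow gland and breast of the same mouse to be set side by side, without a test for each. In T635 the breast sample was higher in Krt14 by 3.21, Krt17 by 4.18, Trp63 by 2.58, Krt5 by 2.55 and Krt15 by 1.26. It was lower in the same animal for Acta2 (-1.47), Myh11 (-3.98), Cnn1 (-4.09) and Oxtr (-4.16). In T627 all 9 genes were lower in breast, from -2.16 for Krt14 to -5.05 for Trp63 and -5.27 for Cnn1. The 2 animals thus matched in the contractile arm and Oxtr and were opposite in the keratins and Trp63.

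**Figure D4:**
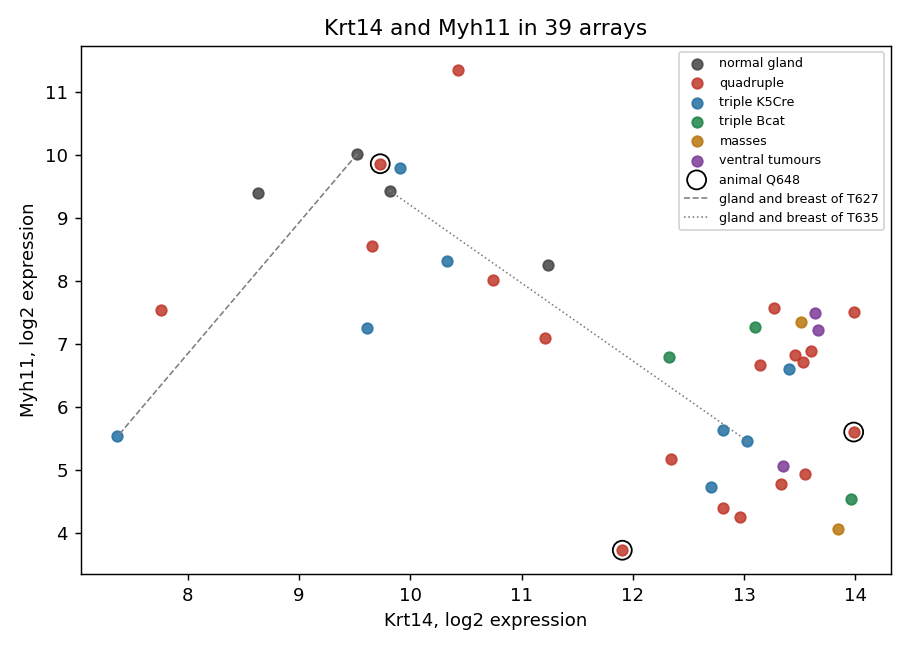
Krt14 against Myh11, log2 expression, in 39 arrays coloured by group; circles mark the 3 arrays of Q648 and lines join gland and breast of T627 and T635. The glands sit at Krt14 of 11.24 or less with Myh11 of 8.26 or more, arrays with Krt14 above 12 have Myh11 below 8, and the breast sample of T627 is the point at lower left, at 7.37 and 5.54.

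Within the quadruple group, which has 15 animals once arrays of an animal are averaged, the genes other than Krt15 and Oxtr fell into a keratin block and a contractile block. Of 36 pairs, 11 were correlated at an adjusted p under 0.05 (permutation test, 100000 resamples, Benjamini-Hochberg over the pairs), and all 11 were positive. In the keratin arm Krt14 and Krt17 gave r = 0.97 (rho = 0.93, adjusted p = 9e-05 by permutation), Krt5 and Krt14 r = 0.92, and Krt14 and Trp63 r = 0.89. In the contractile arm Myh11 and Cnn1 gave r = 0.97 (rho = 0.93, adjusted p = 9e-05 by permutation), Acta2 and Cnn1 r = 0.91, and Acta2 and Myh11 r = 0.88. The smallest raw p that these resamples can give is 1e-05.

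Oxtr joined the contractile arm less closely, with r = 0.71 with Cnn1 (rho = 0.60, permutation adjusted p = 0.00839 for r and 0.0541 for rho) and r = 0.69 with Myh11 (rho = 0.64, permutation adjusted p = 0.0109 for r and 0.0404 for rho). Neither passed without quadruple array 16 (adjusted p = 0.0783 and 0.0972 by permutation), which was left out after the values were seen. Between the arms, counting Krt15 and Oxtr, every r was negative and no pair passed by Pearson r. By rank, Trp63 and Myh11 passed (rho = -0.67, adjusted p = 0.0286 by permutation), and with the mean of all probe sets Krt17 and Oxtr did (r = -0.61, adjusted p = 0.0437 by permutation). Krt14 and Oxtr had the r farthest below 0 with the probe sets used here (r = -0.51, permutation p = 0.0494, adjusted p = 0.137), and the r without the 2 animals farthest in Krt14 was -0.69.

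Krt15 was correlated with no other member at that threshold: its r ran from -0.31 with Cnn1 to 0.46 with Trp63. Without quadruple array 16 it was inversely correlated with Cnn1 (r = -0.79, adjusted p = 0.00281 by permutation), Myh11 (r = -0.78, adjusted p = 0.00468) and Acta2 (r = -0.65, adjusted p = 0.0295). Leaving out the 2 animals farthest from the median of the first gene kept the sign in all but 2 of the 36 pairs, Krt15 with Krt5 and with Krt14. In the 11 pairs r was then between 0.55 and 0.94.

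**Figure D5:**
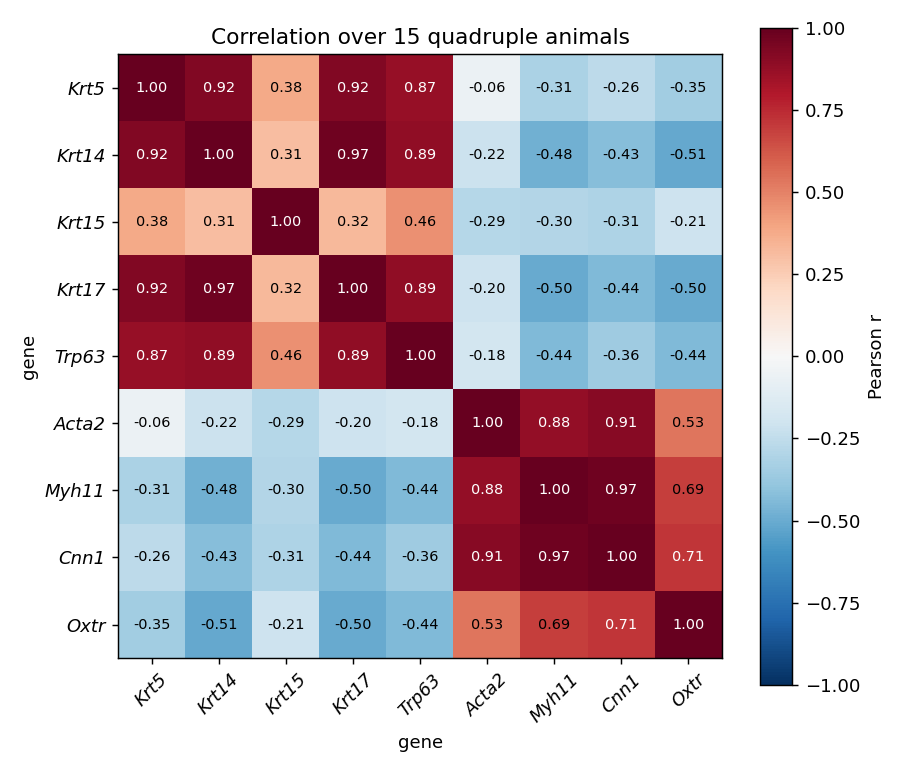
Pearson r between the 9 genes over 15 quadruple animals. Krt5, Krt14, Krt17 and Trp63 form a block with r from 0.87 to 0.97 and Acta2, Myh11 and Cnn1 another from 0.88 to 0.97; r between the blocks runs from -0.06 to -0.50.

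Markers of other tissues were read beside these genes, and their levels are given as means of the listed genes per array. The suprabasal and cornified epidermis list (15 of 15 measured, among them Krt1, Krt10 and Lor) was 8.32 in gland 1 and between 4.78 and 4.79 in glands 2 to 4. It ran from 4.76 to 12.92 in quadruple, 4.56 to 11.97 in triple K5Cre, 9.22 to 12.70 in triple Bcat, 10.69 to 12.24 in the masses and 11.70 to 12.40 in the ventral tumours. None of its genes was called by limma against the glands in any of the 5 groups. At an unadjusted p under 0.05, 10 were higher in quadruple, 5 in triple K5Cre, 13 in triple Bcat, 11 in the masses and 13 in the ventral tumours. Of all 18194 genes, 2300, 2681, 1692, 1875 and 1434 were higher at that threshold, in the same order. Gland 1 was also the gland with the highest keratins and Trp63 and the lowest Acta2, Myh11, Cnn1 and Oxtr.

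Over the 15 quadruple animals that list's level was correlated with Krt14 (r = 0.90, rho = 0.91, adjusted p = 0.000315 by permutation) and Krt17 (r = 0.89, rho = 0.96, adjusted p = 0.000315). The same held for Krt5 (r = 0.81, rho = 0.80, permutation adjusted p = 0.00441) and for Trp63 (r = 0.77, rho = 0.69, permutation adjusted p = 0.00441, and 0.0581 for rho). With Krt15 r was 0.13 and with Oxtr -0.67 (permutation adjusted p = 0.73 and 0.0753). These 4 were the pairs that passed among 63 of 9 genes and 7 marker lists, a family added after the values were seen, and without the 2 animals farthest in the list r was 0.80 to 0.92. The part of epidermal tissue in the keratin values was not tested.

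The hair follicle list (9 of 10 measured) ranged from 4.21 to 7.49 in the glands, again highest in gland 1, and from 4.34 to 9.39 in quadruple breast. The vascular smooth muscle and pericyte list, whose cells also hold Acta2, Myh11 and Cnn1, was 8.17 ± 0.10 (SD, n = 4) in the glands, 8.12 ± 0.44 (SD, n = 19) in quadruple and 8.23 ± 0.41 (SD, n = 8) in triple K5Cre breast. All arrays of triple Bcat (8.29 to 8.59) and of the ventral tumours (8.60 to 9.13), and 1 of 2 masses (8.24 and 8.52), lay above the highest gland (8.25). Of its 8 genes, Mcam fell in quadruple, triple K5Cre and masses, and the others were called in none of the 5 comparisons. Its defining genes Rgs5, Pdgfrb and Notch3 were between 8.61 and 10.78 in the glands. The luminal list was 10.90 ± 0.49 (SD, n = 4) in the glands and 9.87 ± 0.87 (SD, n = 19) in quadruple breast, with 1 of 12 genes called, Esr1 (-3.00). It was 8.53 to 9.35 in the ventral tumours and 9.46 to 9.70 in the masses, below every gland.

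Fat and muscle separated the groups further. All 8 adipocyte and all 10 skeletal muscle genes fell in quadruple and triple K5Cre breast, and the adipocyte level was 12.50 to 12.74 in the glands against 5.50 to 12.50 in quadruple breast. The skeletal muscle level was 11.04 to 12.61 in the glands and had a median of 4.59 in quadruple breast. Over the 15 animals neither list passed with any of the 9 genes (for Myh11, r = 0.39 with adipocytes and 0.25 with skeletal muscle, permutation adjusted p = 0.321 and 0.56). By rank the skeletal muscle list came closer for Acta2 (rho = 0.69), Cnn1 (0.63) and Myh11 (0.60), with permutation adjusted p = 0.0581, 0.0768 and 0.0934. For Oxtr rho was 0.061. The fibroblast list was 10.06 to 10.67 in the glands and 7.22 to 11.17 in quadruple breast, with the ventral tumours at 10.79 to 11.85, above every gland; its part in the levels, like that of fat and muscle, was not tested.

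Other genes of the basal programme were followed through lists. Of 13 measured genes for basal adhesion and epidermal-type basal cells, 5 rose and 1 fell in quadruple breast against gland, with a median difference of 0.86 beside 0.0079 over all genes. Dsc3, a desmosomal cadherin of basal keratinocytes, rose by 4.20 (SE 1.20), and Sfn, the stratifin of stratified epithelium, rose by 2.34 (SE 0.76). The other rises were in Perp (2.06), Pkp1 (1.87) and Itgb4, named here because they passed. Dst, which encodes the plakin that ties keratins to hemidesmosomes, fell by 1.53 (SE 0.41), although its hemidesmosome partner Itgb4 rose by 1.20 (SE 0.30).

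In triple K5Cre breast the calls of that list were Itgb4 (1.28, SE 0.31) and Dst (-1.88, SE 0.43). In the masses Dsc3 rose by 6.09 (SE 1.89) and Pkp1, a desmosomal plakophilin, by 3.04 (SE 0.97). In triple Bcat and the ventral tumours 0 of 13 were called by limma (at an unadjusted p under 0.05, 4 higher and 1 lower in triple Bcat, and 6 higher in the ventral tumours). Over all 18194 genes that unadjusted threshold gave 1692 higher and 2329 lower in triple Bcat, and 1434 higher in the ventral tumours. The median differences were 0.49 in triple K5Cre, 0.82 in triple Bcat, 1.44 in the masses and 0.99 in the ventral tumours.

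Of 18 smooth muscle contractile genes other than the members, 4 fell and 0 rose in quadruple breast, with a median of -0.33. Synpo2, an actin-bundling protein of muscle, fell by 4.42 (SE 0.68), and its quadruple and gland arrays did not overlap. Synm, an intermediate filament protein of muscle, fell by 3.01 (SE 0.68), and Des, desmin, by 2.40 (SE 0.53). Lmod1, which nucleates actin in smooth muscle, was the fourth, at -1.03. Des and Synpo2 are also genes of skeletal muscle, whose 10 listed genes fell in the same comparison. The part of skeletal muscle in the falls of these 4 genes was not tested.

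The same 4 genes fell in triple K5Cre breast, where Mrtfa, a coactivator of serum response factor, rose by 0.46 (SE 0.14). Synpo2, Synm and Des fell in triple Bcat breast and in the masses, with Synpo2 at -4.80 and -5.19. In the ventral tumours 0 of 18 were called by limma (4 lower at an unadjusted p under 0.05, beside 1973 of all 18194 genes). Tagln, Myl9 and Mylk, singled out after their values were seen, passed in 0 of the 5 comparisons; in quadruple breast they differed by -1.23, -1.02 and -1.42. Of 10 regulators linked to mammary basal cells 0 were called in quadruple, triple K5Cre or triple Bcat breast by limma (at an unadjusted p under 0.05, 1 higher and 1 lower in the first and second, 1 lower in the third). Of all 18194 genes, 2300 were higher and 2762 lower at that threshold in quadruple, 2681 and 2687 in triple K5Cre, and 2329 lower in triple Bcat. In the masses Nrg1, a growth factor of the EGF family, rose by 2.51 (SE 0.67) and Mme, the myoepithelial surface peptidase CD10, fell by 4.92 (SE 1.53). In the ventral tumours Mme fell by 5.92 (SE 1.59).

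Over all 39 arrays Krt14 with Krt17 (Pearson r, given as a description, 0.98) and Myh11 with Cnn1 (0.96) were more alike than either was with any gene named below. Krt5 with Trp63 (0.924) and Acta2 with Cnn1 (0.885) came just below a gene outside the members. That gene was Plch2 (0.926 with Krt5 and with Trp63) or Tagln (0.886 with Acta2). The genes named next are the most similar ones once the 9 members and genes with clone or predicted names are left out. Krt14 was most like Sfn (r = 0.95), Perp (0.94) and Rgs12 (0.94), and Krt17 most like Perp (0.95), Sfn (0.95) and Grhl3 (0.94). Krt5 and Trp63 had the same leading pair among them, Plch2 (0.93 with both) and Pard6g (0.92 and 0.91), followed by Calml3 (0.89) and Btbd11 (0.90). Krt15 stood apart: its best matches, Lmo1, Slc27a3 and Sostdc1, reached only 0.71, 0.71 and 0.67.

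Tagln, transgelin of smooth muscle, led these for Acta2 (0.89), Myh11 (0.84) and Cnn1 (0.85). Next came Tgfb1i1 and Myl9 for Acta2 (0.87 and 0.85), Kcnq5 and Slc22a5 for Myh11 (0.81 each), and Tgfb1i1 and Pdlim3 for Cnn1 (0.83 and 0.79). Oxtr was most like Gpd1l (0.86), Eif4a2 (0.83) and Gprasp1 (0.82), none of them a contractile gene. Over the 35 arrays without the glands, r was 0.88 for Acta2 with Tagln, 0.81 for Oxtr with Gpd1l and 0.75 for Oxtr with Gprasp1.

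Krt5, Krt15 and Cnn1 had 1 probe set each. The other probe sets were dimmer, apart from one of Krt14 that can cross-hybridise and was set aside, and their r with the one used ran from 0.56 to 0.94. For Oxtr the other probe set (mean 5.17) differed between quadruple and gland means by -0.41, against -2.57 for the one used, and for Myh11 by -0.37 against -2.57. The directions therefore matched while the sizes did not, and no order of levels between genes is read from these values. The Acta2 probe set used is one that can share targets with related transcripts.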

How the data were processed

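Total RNA of 39 mouse tissue samples was hybridised to Affymetrix 3' arrays, per the labels' protocols. The deposited values are log2 expression from RMA, per the submitters' processing notes, and its version and settings are not given in the sources used here. Values ran from 1.65 to 14.61 and array medians from 5.10 to 5.27; the number of arrays limits the precision. Of 45101 probe sets, 34958 had 1 gene, 932 several and 9211 none, and 1 probe set stood for each of 18194 genes: the brightest, with _x_at sets used only where a gene had no other.

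Groups came from the genotype and tissue labels, and animals from the sample titles. Nothing else says whether arrays are separate animals, so p-values measure the spread between these samples. limma 3.58.1 (R 4.3.3) fitted 1 mean per group on all 39 arrays with an intensity trend and the animal as a random block (correlation 0.329), with Benjamini-Hochberg adjustment over all genes. The closest arrays, both of Q190, had r = 0.99587 and 69 identical values, and were kept as arrays of 1 animal. Correlations used scipy 1.17.1. The fit was tested on simulated data: of 100 genes changed by 2 log2 units, 88 were called for quadruple, 87 for triple K5Cre, 79 for triple Bcat, 75 for the masses and 73 for the ventral tumours. Of 100 changed by 1 unit, 69, 67, 53, 46 and 49 were called in the same order. The changed genes were drawn from all genes with the spread of each. These rates therefore do not give the chance of calling a member, such as Krt14 or Krt17 (SE 0.91 and 1.03 in quadruple against gland). Alternatives were no block, animal means, the compared groups alone, no dim genes, cyclic loess, all probe sets and each small-group array left out.

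The members and gene lists were chosen with earlier results of these data known. Named genes are the 9 members, the 3 most similar genes of each, and the 2 largest called rises and falls of each list. Replicate numbers were given in accession order and pair nothing; T627 and T635 are paired by animal.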

Additional observations from a re-analysis of the deposited data

Results flagged for a closer look

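Groups of 4 to 10 arrays gave 18 sets of a gene and a group. In 4 of these sets, a single array stood apart from the rest of its group. For any single set, chance gives this about 1 time in 20. The sets reuse the same arrays for correlated genes, and several flags came from a single sample, the breast of T627. The sets are therefore not independent, and their count cannot be weighed against that rate. The triple K5Cre breast sample of T627, array 2, was the lowest of its group by a wide gap in Krt5 (5.74), Krt15 (5.06) and Trp63 (4.02). The triple K5Cre breast sample of T257, array 1, was the highest of its group in Oxtr, at 9.67.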

How the results depend on the processing

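Over 7 comparisons, the 9 genes kept their direction and their side of the threshold in 655 of the differences recomputed under an alternative, became called in 21, lost the call in 21 and turned sign in 14, none of the last called. For triple K5Cre against gland, Krt15 and Trp63 turned to -0.53 and -0.35 without gland 2 and to -0.16 and -0.53 without gland 4. In the replicate block of T627 and T635, Krt5 was -0.72, Krt15 -1.34 and Trp63 -1.23, with 0 members and 0 genes called in all; the animals are paired by origin. With single arrays left out, Krt15 and Trp63 in triple K5Cre ranged from -0.53 to 1.25 and from -0.53 to 1.28, highest without triple K5Cre array 2. Krt15 in ventral tumours ranged from -0.23 without gland 2 to 1.36. Quadruple minus triple K5Cre ranged from -0.094 to 0.024 for Acta2 and from -0.11 to -0.0054 for Myh11. Quadruple minus triple Bcat ranged from -0.16 to 0.47 for Acta2, -0.25 to 1.11 for Myh11 and -0.30 to 1.499 for Oxtr, lowest without triple Bcat array 1.

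With the compared groups alone, the called members numbered 2 (quadruple), 1 (triple K5Cre), 6 (triple Bcat), 5 (masses) and 4 (ventral tumours), and all genes called 2033, 3682 and 2597 in the last 3. Called members numbered 3 in quadruple without dim genes, beside 20.6% of the 12129 genes then tested. They numbered 1 in triple K5Cre with no block, animal means or cyclic loess, and 2 and 0 in ventral tumours with no block and animal means, where all genes called were 2009 and 93. With single arrays left out, called members ranged from 0 to 3 in quadruple (3 without its array 16), 1 to 2 in triple K5Cre, and 0 to 1 in triple Bcat and ventral tumours. All genes called ranged from 1671 to 2991 in quadruple, 1770 to 2877 in triple K5Cre, 381 to 1279 in triple Bcat, 174 to 1179 in the masses and 260 to 686 in ventral tumours. Quadruple against triple K5Cre gave 1 gene without triple K5Cre array 2 and 0 without quadruple array 16. Quadruple against triple Bcat gave 14 with no block, 0 without dim genes and 6 to 15 with an array left out. The causes were not tested. Cyclic loess moved the median of all genes by at most 0.027. The 4 glands, and the 1 to 3 animals of the small groups, limit the comparisons that use them.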
